A study of Mus musculus with 6 samples.

Results

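The genes described here are those through which canonical Wnt signaling is usually read and restrained: the 6 feedback genes *Axin2*, *Nkd1*, *Nkd2*, *Notum*, *Znrf3* and *Rnf43*, and the 4 genes of the TCF/LEF transcription factors, *Lef1*, *Tcf7*, *Tcf7l1* and *Tcf7l2*. They were taken by gene symbol, and all 10 were found among the 27506 genes of the deposited count table and passed the filter on low counts, which left 19330 genes. The RNA came from mandibular first molar pulp of C57BL/6 mice 3.5 days after birth (P3.5), when root formation begins, and 3 *Ror2fl/fl* control libraries were compared with 3 *Osr2-Cre;Ror2fl/fl* (mutant) libraries. By the genotype labels, both groups carried floxed *Ror2*, a Wnt5a receptor of noncanonical signaling, on both chromosomes, and only the mutants carried the Cre transgene. The sample titles also hold letter codes whose meaning is not given. These are WW in control library 1, OW in the other controls and OR in the mutants, so the controls do not share a single code. According to the study, *Osr2-Cre* acts in the dental mesenchyme and the alveolar bone and spares the dental epithelium, so any epithelial cells in a mutant sample kept *Ror2*. The mutants came from *Osr2-Cre;Ror2fl/+* males and *Ror2fl/fl* females, and no group is labelled as carrying Cre without the homozygous floxed allele. The comparison asked whether canonical Wnt readout genes differed after a noncanonical receptor was deleted.

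In canonical signaling, a Wnt ligand bound to a Frizzled receptor and an LRP co-receptor stops the destruction complex from degrading beta-catenin, which then enters the nucleus and binds TCF/LEF proteins on DNA. These factors hold target genes silent with TLE corepressors and activate them with beta-catenin. Many targets encode inhibitors of the pathway, and these act at the ligand (Notum), at the receptor (Znrf3 and Rnf43), at Dishevelled (Nkd1 and Nkd2) and in the destruction complex (Axin2). In the tooth, the pathway is needed in epithelium and mesenchyme, and *Lef1* is known for its part in early tooth development.

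The libraries held between 56134770 and 62628940 estimated counts, and the members had between 597.5 and 3519 counts in every library. *Ror2*, the targeted gene, was at 38.2, 36.2 and 36.7 CPM (counts scaled to a common library size by the TMM method) in the control libraries and at 27.9, 28.1 and 26.3 CPM in the mutants, with no overlap. Its log2 fold change was -0.43 (edgeR's quasi-likelihood test, Benjamini-Hochberg adjusted p = 0.0134, standard error 0.08), and the counts sum all exons, deleted or not. Markers of the labelled tissue were present, at 289 to 367 CPM summed over 7 mesenchyme genes and at 2911 to 9057 CPM over 5 odontoblast genes. Of the mesenchyme genes, only *Dlx2* was called, higher in the mutants (log2 fold change 0.51). The estimates of *Lhx8* (-0.64), *Pax9* (-0.50), *Barx1* (-0.22) and *Msx1* (-0.19) were below 0, and those of *Dlx1* (0.23) and *Lhx6* (0.05) above it. Dental epithelium, however, was heavily represented: the enamel genes *Amelx*, *Ambn* and *Enam* made up 17.3% to 18.9% of the counts in the control libraries and 18.6% to 23.7% in the mutants. The higher mutant sum came from *Amelx*, at 9.15% to 9.97% in controls and 12.6% to 15.1% in mutants, while *Enam* was at 1.89% to 2.09% and 1.02% to 1.68% and *Ambn* overlapped. Of the 11 epithelial markers, 0 were called by edgeR, none was at 0, and their summed level was 172667 to 192628 CPM in controls and 186022 to 256328 CPM in mutants. The skeletal muscle markers *Acta1*, *Myh3*, *Ckm* and *Tnnt3* were called lower, the 5 muscle markers summing to 7.01 to 20.3 CPM in controls and 2.03 to 2.25 CPM in mutants, as were the red blood cell markers *Hba-a1* and *Alas2* and the macrophage marker *Adgre1*. The T cell marker *Cd3g* was called higher, and no odontoblast, endothelial or osteoblast marker was called. *Lef1* and *Tcf7* are also T cell genes, and the T cell markers summed to at most 3.61 CPM in any library. The part of these other tissues in the results was not tested. Mutant library 2 differed more from the other mutant libraries than they did from each other. No batch is named in the labels or the methods, and one that coincided with genotype cannot be told apart from it. The sample titles repeat the indices S5, S6 and S7 in both groups, and what these indices stand for is not given. The study's general statement on replicates counts mice or independent experiments, and its sequencing methods mention pairs of samples, but neither says for these libraries whether each came from a separate animal. The p-values therefore measure the spread between these libraries, whatever its source.

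The promoter of *Axin2* is shown because *Axin2* was the only member called, and an internal promoter of *Lef1* is shown beside it because it held the most matches to the short core of the TCF/LEF binding site. Both are the 250 bases upstream of a RefSeq transcript start on GRCm38.p6, on the plus strand, at chr11:108920099-108920348 for *Axin2* and at chr3:131156044-131156293 for *Lef1*. Neither overlaps an exon of its gene, and the *Lef1* window lies within the gene. Capitals mark the core CTTTG as read on either strand.
Axin2: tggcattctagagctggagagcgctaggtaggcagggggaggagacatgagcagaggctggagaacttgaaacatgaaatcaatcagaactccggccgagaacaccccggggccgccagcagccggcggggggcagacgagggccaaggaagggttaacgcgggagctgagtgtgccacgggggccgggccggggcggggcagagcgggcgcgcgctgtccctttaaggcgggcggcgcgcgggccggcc
Lef1: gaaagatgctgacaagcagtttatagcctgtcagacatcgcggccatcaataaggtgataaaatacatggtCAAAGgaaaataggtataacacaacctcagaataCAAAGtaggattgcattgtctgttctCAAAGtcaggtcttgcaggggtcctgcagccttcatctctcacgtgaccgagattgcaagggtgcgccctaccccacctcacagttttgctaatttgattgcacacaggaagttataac
The *Axin2* window was 69.2% GC with 24 CpG dinucleotides and no core match, and the *Lef1* window was 44.8% GC with 5 CpG dinucleotides and matches starting at -179, -145 and -119 from the transcript start. RefSeq windows were found for 8 of the 10 members, 14 windows in all, some of which overlap. The core was in 7 of the 14 windows (50.0%), near the 48.58% of all 32851 windows of this length. It was in 0 of the 5 feedback gene windows and in 7 of the 9 TCF/LEF windows. Most of those 7 are windows of *Lef1*, including overlapping ones that share a match, and the *Tcf7* windows held no match. The longer forms CTTTGAA and CTTTGAT, which contain the core, were in 0 of the 14 windows and in 7.48% of all windows. A match is a description of these letters in these windows, and nothing follows from it or from its absence about binding.

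Among the 10 members, 1 gene, *Axin2*, was called higher in the mutants and 0 were called lower at an adjusted p-value under 0.05 in edgeR's quasi-likelihood test. Of all genes tested, 20.2% were called, so a count of 1 in 10 was no more than the share of genes in general. The 3 control and 3 mutant libraries did not overlap for 3 members, *Axin2*, *Notum* and *Rnf43*, all higher in the mutants, against 44.7% of all genes in either direction and 22.6% with the mutants higher. The members' median log2 fold change was 0.14, and that of all genes tested was 0.01. The feedback genes had a median of 0.22, with 5 of 6 estimates above 0, and the TCF/LEF genes had a median of -0.02, with 2 of 4 above 0. Of all genes tested, 9794 of 19330 had estimates above 0. With an offset for GC content, described below, the median was 0.02 for the members and -0.02 for all genes tested. It was then 0.09 for the feedback genes and -0.08 for the TCF/LEF genes. Fewer cells of a type and less RNA per cell cannot be told apart in these bulk libraries.

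**Figure D1:**
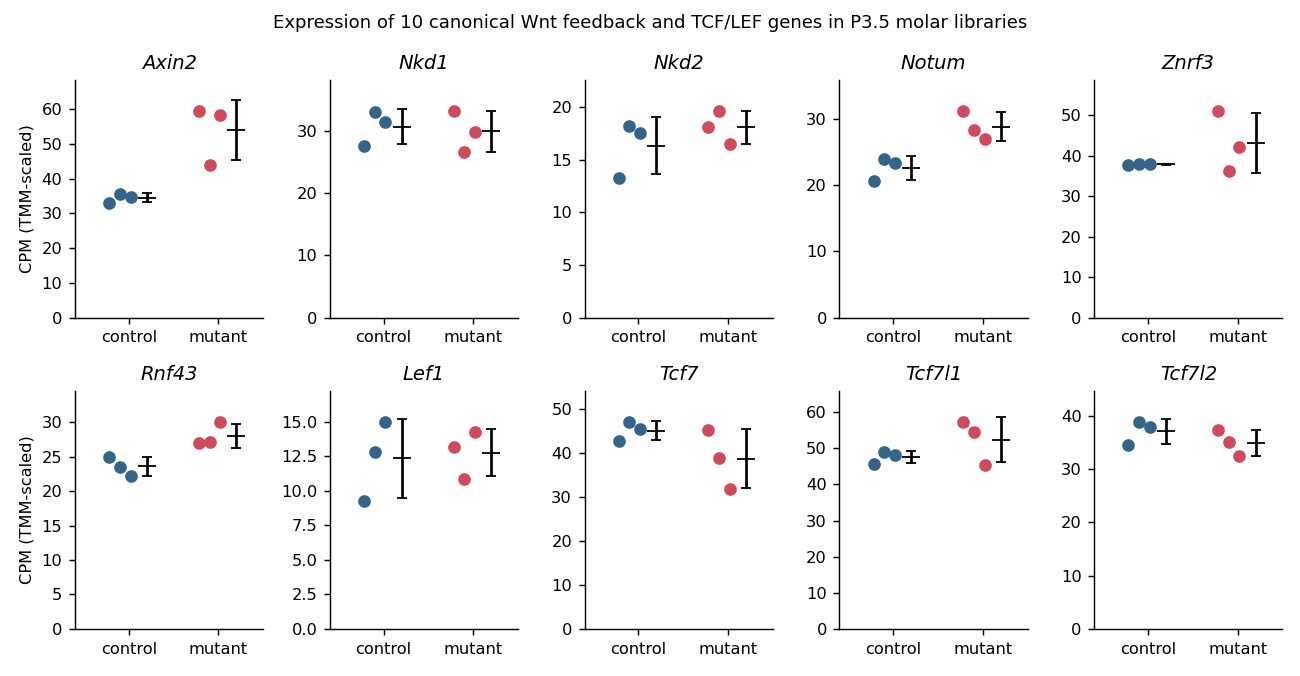
Expression of the 10 members in each library, in TMM-scaled CPM on axes that start at 0, with 3 control and 3 *Osr2-Cre;Ror2fl/fl* (mutant) libraries per gene in replicate order, and a bar beside them for the mean and SD. The mutant points lie wholly above the control points only for *Axin2*, *Notum* and *Rnf43*, and within *Axin2* mutant library 2, at 43.9 CPM, lies nearest to the controls.

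*Axin2* (chr11:108920349-108950783 on mm10, plus strand) encodes the scaffold that assembles the beta-catenin destruction complex, and its transcript is a common readout of canonical signaling. It was at 33.0, 35.7 and 34.8 CPM in the control libraries and at 59.5, 43.9 and 58.2 CPM in the mutants. All 3 mutant libraries were above all controls, and the mutants spread far more than the controls, with means of 34.5 ± 1.34 and 53.9 ± 8.64 CPM (SD, n = 3 each). The level was 1.56-fold higher (95% interval 1.28 to 1.91), or 0.64 on the log2 scale with a standard error of 0.13 (adjusted p = 0.0138 by edgeR's quasi-likelihood test). An exact two-sided permutation test gave p = 0.1, the smallest that 3 libraries against 3 allow. Without control library 2 the log2 fold change was 0.66 with an adjusted p of 0.0625 (edgeR). Without control library 3 it was 0.64 with an adjusted p of 0.0701 (edgeR). The call was thus lost in both fits while the size of the change was kept. Over all genes, the number called fell from 3906 to 910 and to 872 in these fits, so such a loss was not particular to *Axin2*. With an offset for GC content the call was lost as well, at a log2 fold change of 0.45 with an adjusted p of 0.0947 (edgeR). Enamel transcripts took 17.3%, 17.8% and 18.9% of the counts in control libraries 1, 2 and 3 and 23.7%, 18.6% and 21.2% in mutant libraries 1, 2 and 3. Among the mutants, this share was lowest in the library with the lowest *Axin2*, whereas the controls did not follow the order of *Axin2* and *Enam* alone was highest in mutant library 3. The part of this in the difference was not tested. By in situ hybridization and qPCR at the same age, the study reported no significant difference in *Axin2* between these genotypes. It reported none in active beta-catenin by immunostaining either. From these results the study took canonical signaling not to be involved in the reduced proliferation. The in situ hybridization and immunostaining were shown for the apical region, whereas the libraries were made from pulp. Those are other measures, and the libraries were not compared with them.

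The Naked cuticle genes *Nkd1* (chr8:88521354-88594884, plus strand) and *Nkd2* (chr13:73818534-73847631, minus strand) encode Dishevelled-binding proteins that dampen the signal. *Nkd1* was at 27.6, 33.1 and 31.4 CPM in controls and at 33.25, 26.7 and 29.9 CPM in mutants. The groups overlapped, with a log2 fold change of -0.04 whose 95% interval ran from -0.30 to 0.23 (adjusted p = 0.844, edgeR). *Nkd2* was at 13.3, 18.3 and 17.5 CPM in controls and at 18.1, 19.7 and 16.5 CPM in mutants. Its control library 1 was the lowest of the 6, the other libraries were intermingled, and the log2 fold change was 0.15 (95% interval -0.18 to 0.47, adjusted p = 0.483, edgeR). An increase of *Nkd1* as large as the *Axin2* estimate lay outside its interval, as did one of *Nkd2*. Whether *Axin2* and the *Nkd* genes differed from each other in their response was not tested.

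*Notum* (chr11:120653788-120661175, minus strand) encodes a secreted enzyme that inactivates Wnt ligands by removing their lipid. It was at 20.6, 24.0 and 23.4 CPM in the control libraries and at 31.3, 28.5 and 27.0 CPM in the mutants, without overlap. The log2 fold change of 0.35 (standard error 0.11, 95% interval 0.11 to 0.59) had an adjusted p of 0.0503 in edgeR's quasi-likelihood test and did not pass the threshold. A limit applies to this gene: *Notumos*, annotated on the opposite strand, overlaps 29.4% of its exon bases and shares 23.1% of its 75-base stretches. The counts assigned to *Notumos* were 1.02, 1.39 and 1.51 CPM in controls and 4.38, 3.47 and 2.95 CPM in mutants, or 5.76% and 12.4% of those of *Notum*. Strand use in the counting is not stated, so reads of these 2 genes cannot be told apart. Summed with *Notumos* and *Myadml2os*, another overlapping antisense gene, *Notum* reached a log2 fold change of 0.45 (edgeR, adjusted p = 0.0254). With the offset for GC content, *Notum* by itself was at 0.08 (adjusted p = 0.67, edgeR) and the groups overlapped.

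*Znrf3* (chr11:5276324-5444847, minus strand) and *Rnf43* (chr11:87662722-87735539, plus strand) encode membrane ubiquitin ligases that remove Frizzled receptors from the cell surface. *Znrf3* was nearly the same in the 3 control libraries, at 37.6, 38.0 and 37.8 CPM, and ranged widely in the mutants, at 51.1, 36.2 and 42.1 CPM. Mutant library 2 was below the controls and the other mutants above them, and the log2 fold change of 0.19 (95% interval -0.10 to 0.48) did not pass the test (adjusted p = 0.303, edgeR). *Rnf43* was at 25.0, 23.6 and 22.3 CPM in controls and at 27.0, 27.1 and 30.0 CPM in mutants. The groups did not overlap, but the log2 fold change of 0.25 (95% interval 0.03 to 0.47) had an adjusted p of 0.0998 by edgeR. Thus the 2 ligases had similar estimates with different spreads, and neither was called.

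**Figure D2:**
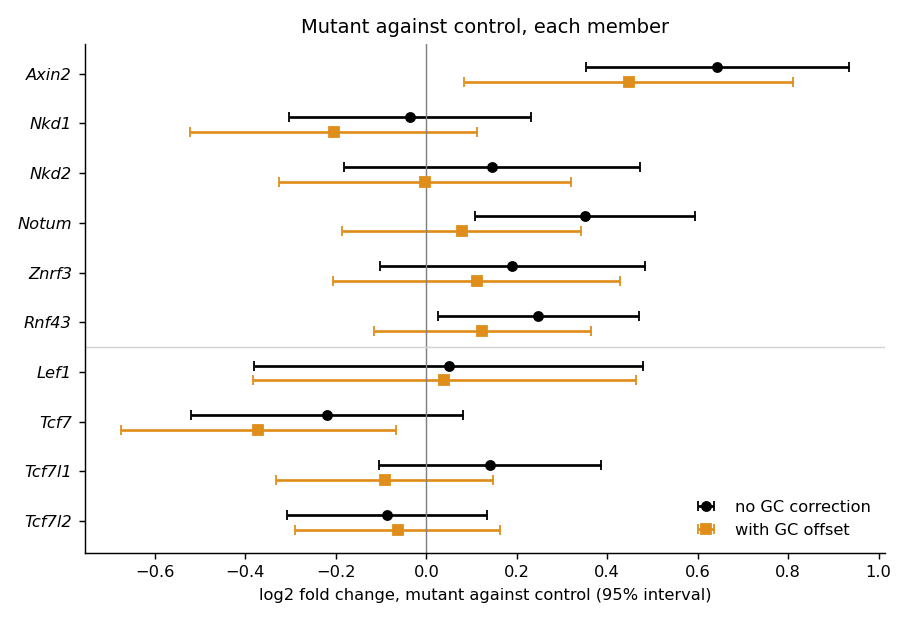
Log2 fold change of each member, mutant against control, with its 95% interval from edgeR's quasi-likelihood fit (circles) and from the same fit with an offset for GC content (squares), 3 libraries per group. The *Axin2* estimate moves from 0.64 to 0.45 and the *Notum* estimate from 0.35 to 0.08, and the interval of *Axin2* is the only one of a feedback gene that stays above 0 with the offset.

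None of the TCF/LEF genes was called, and the control and mutant libraries overlapped for each of them. *Lef1* (chr3:131110471-131224356, plus strand), which encodes the factor most often tied to activation, was at 9.29, 12.8 and 15.0 CPM in controls and at 13.2, 10.9 and 14.3 CPM in mutants. Its control libraries were the most spread of the members relative to their mean, and its log2 fold change of 0.05 had a 95% interval of -0.38 to 0.48 (adjusted p = 0.868, edgeR), wide on both sides of 0. An antisense gene, *Gm43352*, overlaps 13.7% of the *Lef1* exon bases and held 3.90% of the *Lef1* CPM in controls and 6.45% in mutants. Counted together, the pair gave a log2 fold change of 0.08 (edgeR, adjusted p = 0.768).

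*Tcf7* (chr11:52252371-52283014, minus strand), which encodes TCF1, was at 42.8, 47.1 and 45.5 CPM in controls and at 45.4, 38.9 and 32.0 CPM in mutants. Mutant library 1 lay within the control range and the other mutants below it, for a log2 fold change of -0.22 (95% interval -0.52 to 0.08, adjusted p = 0.25, edgeR). *Tcf7l1* (chr6:72626378-72789254, minus strand), which encodes TCF3, the member known mainly as a repressor, was at 45.7, 48.9 and 48.1 CPM in controls and at 57.3, 54.5 and 45.4 CPM in mutants. Here mutant library 3 was just below the controls and the other mutants were above them, for a log2 fold change of 0.14 (95% interval -0.11 to 0.39, adjusted p = 0.365, edgeR). *Tcf7l2* (chr19:55741820-55933654, plus strand), which encodes TCF4, was at 34.4, 38.8 and 37.9 CPM in controls and at 37.2, 35.04 and 32.4 CPM in mutants, a log2 fold change of -0.09 (95% interval -0.31 to 0.13, adjusted p = 0.535, edgeR). Among the mutant libraries, library 3 had the lowest level of *Tcf7*, *Tcf7l1* and *Tcf7l2* and the highest of *Lef1*.

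Per kilobase of merged exons, the levels in control libraries ran from *Tcf7* (17.2 ± 0.83 CPM per kilobase, SD, n = 3), *Tcf7l1* (12.1 ± 0.43) and *Notum* (9.42 ± 0.75) through *Nkd1* (6.74 ± 0.63), *Axin2* (6.27 ± 0.24), *Znrf3* (4.79 ± 0.03) and *Tcf7l2* (4.22 ± 0.26) to *Rnf43* (3.60 ± 0.20), *Nkd2* (3.39 ± 0.55) and *Lef1* (1.41 ± 0.33). The ranges of *Nkd1* and *Axin2* overlapped, as did those of *Rnf43* and *Nkd2*, and all other neighbours in this order were apart in the control libraries. In the mutants *Axin2*, at 9.79 ± 1.57 CPM per kilobase, stood above *Nkd1*, at 6.57 ± 0.72. *Rnf43*, at 4.27 ± 0.27, and *Tcf7l2*, at 3.98 ± 0.28, overlapped there, with *Rnf43* the lower in mutant library 1. Divided by the longest transcript instead, *Tcf7l2*, whose many annotated isoforms make its merged exons long, moved from the seventh place in controls to the fourth, and *Tcf7l1* stood above *Tcf7* in the mutants, so these places depend on the length used.

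The balance within the TCF/LEF family was described by each gene's share of the summed CPM per kilobase, which does not depend on how the libraries are scaled. *Tcf7* made up 49.5%, 49.5% and 48.7% of the sum in the control libraries and 46.0%, 43.7% and 41.9% in the mutants. *Tcf7l1* made up 35.3%, 34.3% and 34.4% in controls and 38.8%, 40.9% and 39.8% in mutants. For both genes the groups were apart, *Tcf7* with a difference of -5.37 percentage points and *Tcf7l1* with one of 5.13 points. For each, the exact two-sided permutation test gave p = 0.1, the smallest possible, and 0.2 after Benjamini-Hochberg adjustment over the 4 genes, so this test could not pass the threshold with 3 libraries against 3, and no other test of the shares was run. *Tcf7l2* went from 12.1% ± 0.14 to 11.9% ± 0.72 and *Lef1* from 4.001% ± 0.79 to 4.41% ± 1.03 (SD, n = 3), and the groups overlapped for both. Since shares add to a fixed total, they show unequal change and not which gene changed. The sum itself was 34.9 ± 1.78 CPM per kilobase in controls and 33.5 ± 4.30 in mutants, with overlap. With CPM corrected for GC content, the difference was -5.28 points for *Tcf7* and 3.20 points for *Tcf7l1*, still without overlap, and for *Tcf7l2* the sign turned, to 1.28 points with the mutants above all controls.

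**Figure D3:**
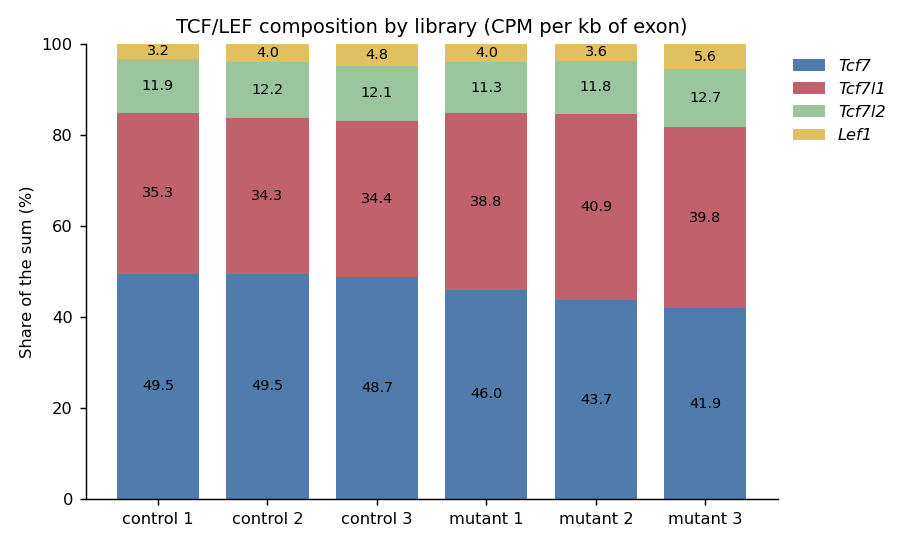
Share of the summed CPM per kilobase of merged exon held by each of the 4 TCF/LEF genes (%, vertical axis from 0 to 100) in each library. The *Tcf7* segment is 48.7% to 49.5% of the bar in the control libraries and 41.9% to 46.0% in the mutants, and the *Tcf7l1* segment is 34.3% to 35.3% and 38.8% to 40.9%.

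Fold changes across all genes moved with the GC content of the merged exons. The median log2 fold change of all genes tested was -0.38 at 35% to 40% GC, -0.22 at 40% to 45%, -0.04 at 45% to 50%, 0.12 at 50% to 55% and 0.21 at 55% to 60%. *Znrf3*, *Lef1* and *Tcf7l2* fell in the 45% to 50% bin, *Nkd1*, *Nkd2*, *Rnf43* and *Tcf7* in the next one, and *Axin2* (56.4% GC), *Notum* and *Tcf7l1* in the 55% to 60% bin. An offset for GC content fitted in each library lowered the share of genes called from 20.2% to 13.4%, and 0 members were then called by edgeR. With an offset for GC content and length together, 1 member was called, *Axin2* at a log2 fold change of 0.53 (adjusted p = 0.0377, edgeR). The log2 fold change of *Axin2* became 0.45 (95% interval 0.08 to 0.81, adjusted p = 0.0947, edgeR with the offset). With the GC-adjusted values, *Axin2* was at 34.7, 38.9 and 37.7 CPM in controls and at 56.4, 37.9 and 57.4 CPM in mutants, so that mutant library 2 fell within the control range. *Rnf43* became 0.12 on the log2 scale (adjusted p = 0.44) in the same edgeR fit, and its groups then overlapped. *Tcf7* became -0.37 (adjusted p = 0.0959, edgeR), with GC-adjusted values of 44.4, 50.3 and 48.2 CPM in controls and 43.9, 34.8 and 31.6 CPM in mutants, which did not overlap. Whether the GC trend came from the libraries' preparation or from the tissue was not tested.

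**Figure D4:**
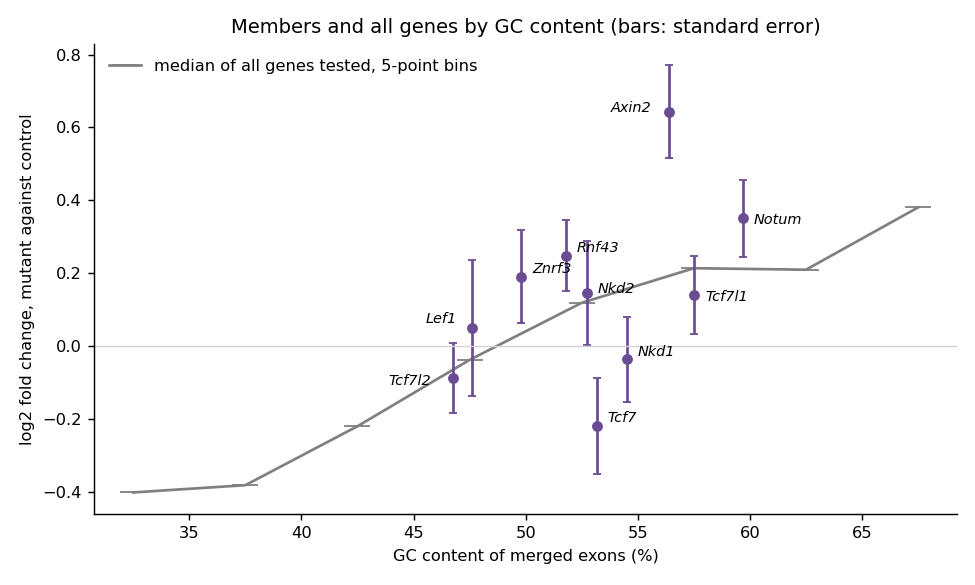
Log2 fold change of each member (points, bars show the standard error, 3 libraries per group) against the GC content of its merged exons in percent, with the median of all genes tested in bins of 5 percentage points (line). The line climbs from -0.38 at 35% to 40% to 0.21 at 55% to 60%, and *Axin2*, at 0.64, stands farthest above it while *Tcf7*, at -0.22, stands farthest below.

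Around the members, 69 other genes of the canonical pathway in 3 lists were examined, of which 67 were listed in the table and tested. Of these, 4 were called higher and 6 lower by edgeR, beside 20.2% of all genes, and their median log2 fold change was -0.11. The groups did not overlap for 26 of them, beside 44.7% of all genes. Among the 25 genes of the receptors and the destruction complex, 0 were called higher and 2 lower. *Apc2*, a relative of the scaffold gene *Apc*, was at 7.24, 8.18 and 8.21 CPM in controls and 4.60, 4.75 and 5.90 CPM in mutants, without overlap (log2 fold change -0.63, adjusted p = 0.0231, edgeR). *Csnk1a1*, the casein kinase that primes beta-catenin for degradation, stood at -0.46 on the log2 scale (adjusted p = 0.0364, edgeR). With the GC offset *Apc2* was at -0.91 (adjusted p = 0.0133) and *Csnk1a1* at -0.17 (adjusted p = 0.434) in edgeR's fit.

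Among the 20 nuclear partners, 1 was called higher and 3 lower, again near the 20.2% of all genes. *Pygo2*, which encodes a beta-catenin cofactor, was at 43.2, 42.5 and 42.6 CPM in controls and 50.9, 52.1 and 51.6 CPM in mutants (log2 fold change 0.27, adjusted p = 0.046, edgeR). Its relative *Pygo1* fell by 0.40 in log2 units (adjusted p = 0.0294, edgeR), and *Nlk*, which encodes a kinase that phosphorylates TCF/LEF proteins, fell by 0.42 (adjusted p = 0.0263, edgeR). The third, *Tbl1xr1*, which encodes a transcriptional cofactor and is named because the count was small, fell by 0.41 (adjusted p = 0.0391, edgeR). With the GC offset none of these 4 was called. *Ctbp2*, not called without the offset, was called with it (log2 fold change -0.34, adjusted p = 0.0496, edgeR).

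Among the 22 other target genes tested, 3 were called higher and 1 lower, a share near the 20.2% of all genes. *Edar*, the ectodysplasin receptor gene expressed in dental epithelium, rose from 5.47, 5.06 and 4.70 CPM to 11.3, 9.62 and 8.07 CPM (log2 fold change 0.93, adjusted p = 0.0079, edgeR). *Myc*, a growth regulator and a classical target, rose from 15.1, 14.3 and 15.6 CPM to 22.3, 18.99 and 22.6 CPM (log2 fold change 0.50, adjusted p = 0.0185, edgeR). The homeobox gene *Msx2*, also named because the count was small, rose by 0.38 on the log2 scale (adjusted p = 0.0416, edgeR). *Ccnd2*, which encodes cyclin D2, was at 353, 420 and 380 CPM in controls and 245, 209 and 298 CPM in mutants and fell by 0.62 (adjusted p = 0.0269, edgeR). With the GC offset *Edar* (0.82, adjusted p = 0.0128) and *Ccnd2* (-0.67, adjusted p = 0.0326) were called in edgeR's fit, and *Myc* (0.34, adjusted p = 0.115) and *Msx2* (0.31, adjusted p = 0.118) were not. *Trib2*, not called without the offset, was called lower with it (-0.51, adjusted p = 0.0478, edgeR).

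**Figure D5:**
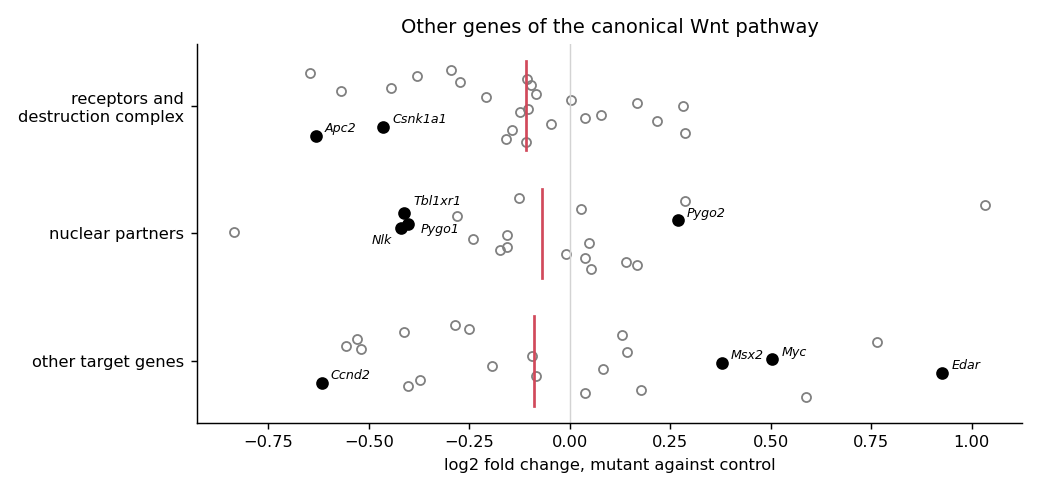
Log2 fold change, mutant against control, of the 67 other canonical pathway genes tested, by list (points spread vertically for legibility, 3 libraries per group). Filled points passed an adjusted p of 0.05 in edgeR's quasi-likelihood test, 4 to the right and 6 to the left of 0, and red bars mark the list medians of -0.11, -0.07 and -0.09.

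The genes whose pattern over the 6 libraries lay closest to that of *Axin2*, by the root mean square difference of log2 CPM centred on each gene's mean, were *Fkbp1a-ps1* (0.05), *Slit1* (0.06) and *Mcc* (0.07), among 19330 genes. The first is a pseudogene at 0.45 to 0.90 CPM, and the second, which encodes an axon guidance ligand, was at 1.83 to 3.37 CPM, both far below *Axin2*. *Mcc*, named for its mutation in colorectal cancer, was at 25.6, 25.7 and 23.4 CPM in controls and at 41.7, 32.9 and 40.0 CPM in mutants, with a log2 fold change of 0.62 (adjusted p = 0.0105, edgeR). These genes were selected for their likeness, so what they share with *Axin2* over the libraries is no further result.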

How the data were processed

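RNA-seq of P3.5 molar dental pulp was analyzed in 3 control and 3 mutant libraries, grouped by the genotype in the labels. The authors deposited estimated counts per gene (47.8% of the values exactly whole), and a normalized signal table that the authors made as the count plus 1 times a single factor per library, to within 0.001%, not divided by length. The methods name TopHat and mm10, whereas the submitters' processing notes name STAR 2.6.1d, Partek and mm10. Strand use, the handling of reads that fit several genes and the annotation are not given in the sources used here. All 27506 genes matched GENCODE M21 by symbol, chromosome and start, and this release gave coordinates, merged exon lengths and GC content. The count table holds 6 other columns of per-sample values, which were not used.

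Counts were rounded and tested with edgeR 4.0.16 in R 4.3.3 (TMM scaling, filterByExpr, quasi-likelihood test, Benjamini-Hochberg adjustment over 19330 genes, threshold 0.05). The biological coefficient of variation was 18.7%. Depth was 56134770 to 62628940 counts per library. Within each group the libraries differed by more than sampling noise (chi-square per gene at least 60.6), so none was a copy. DESeq2 1.42.0, limma 3.58.1, other scalings and filters, the normalized table, GC and length offsets, a block and leaving out each library were alternatives. The GC offset was a natural spline of log2 CPM deviation on GC content, fitted per library. All 10 members were named, with up to 2 higher and 2 lower called genes per pathway list by smallest p, the 3 genes most like *Axin2*, and overlapping genes with at least 5% of a member's counts. *Gm43352* passed that level in the mutants only. *Myadml2os*, *Tbl1xr1*, *Msx2*, *Ctbp2*, *Trib2*, the called marker genes and the other mesenchyme markers were named after their values were seen. The members and lists were chosen with earlier results of these data known. The GC-corrected shares were added after seeing the data. The fits were tested on simulated data with less spread between libraries than these data. There edgeR's quasi-likelihood test recovered 29 of 73 genes changed by 0.585 on the log2 scale, 63 of 64 by 1 and 63 of 63 by 2. Exact permutation tests used scipy 1.17.1.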

Additional observations from a re-analysis of the deposited data

How the results depend on the processing

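Against 3906 genes called, limma voom with sample quality weights gave 6341, the GC offset 2581, the replicate block 2013 and the replicate block with the GC offset 1258, and leaving out single libraries gave 872 (without control library 3) to 5001, with 910 without control library 2 and 2404 without mutant library 1. The same-numbered libraries of the 2 groups did not deviate together (correlations of -0.10, -0.08 and -0.004 over genes), so the block pairs libraries by number only. Under it *Axin2* was called at a log2 fold change of 0.63 (adjusted p = 0.0379, edgeR). Of the members, 1 was called in the fit reported, 2 with DESeq2, the likelihood ratio test, upper quartile scaling, a filter of 1 CPM in 3 libraries and the normalized table at either pseudocount, 3 with voom, and 0 with the GC offset alone or with the block. Leaving out single libraries gave 0 (without control library 2 or 3) to 2 (without mutant library 3). Of the other pathway genes, 10 were called in the fit reported, 18 with DESeq2, 16 with the likelihood ratio test, 25 with voom, 6 without a filter, 5 with the GC offset, 4 with the GC and length offset, and 2 with the block, with or without the GC offset. Leaving out single libraries gave 0 (without control library 3) to 14, with 1 without control library 2, 3 without mutant library 1 and 6 without control library 1.

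*Axin2* passed the threshold in 18 of 22 settings, the fit reported included, with a log2 fold change of 0.43 to 0.78 and adjusted p of 3.04e-04 to 0.163 across edgeR, DESeq2 and limma. It did not pass with the GC offset (0.45, adjusted p = 0.0947), the block with the GC offset (0.43, adjusted p = 0.163) or, by leaving out single libraries, without control library 2 (0.66) or 3 (0.64). *Notum* passed in 9 of 22 settings: DESeq2 (0.33), likelihood ratio test (0.35), voom (0.33), upper quartile scaling (0.38), the filter of 1 CPM (0.37), the normalized table at pseudocounts of 1 (0.35) and 0.1 (0.37), without mutant library 3 (0.39) and summed with its overlapping genes (0.45). *Rnf43* passed with voom (0.29). The sign of an uncalled member turned for *Nkd1* without control library 2 (0.01) or mutant library 2 (0.051), *Nkd2* with the GC offset (-0.0025), *Lef1* with voom (-0.056), without control library 1 (-0.13) or mutant library 3 (-0.04), *Tcf7l1* with the GC offset (-0.092), the GC and length offset (-0.038) and the block with the GC offset (-0.10), and *Tcf7l2* with the GC and length offset (0.061). Without division by length, the share of *Tcf7l1* differed by 4.21 points and that of *Tcf7l2* by -0.88. Over the fits leaving out single libraries, the log2 fold change ran from 0.57 to 0.78 for *Axin2*, from -0.12 to 0.051 for *Nkd1*, from 0.28 to 0.39 for *Notum*, from -0.13 to 0.20 for *Lef1*, from 0.0069 (without control library 1) to 0.22 for *Nkd2*, from 0.052 (without mutant library 1) to 0.31 (without mutant library 2) for *Znrf3*, from -0.35 (without mutant library 1) to -0.10 (without mutant library 3) for *Tcf7*, from 0.19 to 0.28 for *Rnf43*, from 0.072 (without mutant library 1) to 0.23 (without mutant library 3) for *Tcf7l1* and from -0.15 (without control library 1) to -0.041 (without mutant library 3) for *Tcf7l2*. The cause of these changes was not tested. *Tcf7* and *Znrf3* kept their sign in 20 alternatives and were called in 0 of them.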
